A study of Mus musculus with 9 samples.

Results

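The genes described here are the DNA methyltransferases and Tet enzymes, taken as every row of the deposited count table whose symbol was Dnmt1, Dnmt3a, Dnmt3b, Dnmt3l, Uhrf1, Tet1, Tet2, Tet3 or Tdg. All 9 genes were found among the 23453 gene symbols of the table, and all 9 passed the filter on low counts in each comparison. They were measured by bulk RNA-seq in 9 libraries of mouse cells in 3 states, with 3 replicate libraries per state. EpiLCs (epiblast-like cells) were obtained from naive ESCs in 48 h of culture in N2B27 medium with 1% KSR (a serum replacement), FGF2 and Activin A. aEpiLCs, a model of anterior epiblast, were EpiLCs kept for a further 24 h in N2B27 without added Activin A or FGF2, and pEpiLCs, a model of posterior epiblast, were EpiLCs kept for 24 h with Activin A and the WNT agonist CHIR99021. The study's methods give 1% KSR in both of these media, whereas the labels call that of aEpiLCs basal. The study calls the cells of its aEpiLC and pEpiLC RNA-seq wild-type, without naming a cell line for these libraries, and no transgene or deletion is labelled in any state. EpiLCs differ from both other states in time as well as in medium, so these cannot be told apart in a comparison with EpiLCs. aEpiLCs and pEpiLCs were of the same age.

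DNA methylation in mammals is the addition of a methyl group to cytosine, mostly in CpG dinucleotides. DNMT3A and DNMT3B place new methyl groups, and DNMT3L, which has no catalytic activity of its own, binds and stimulates them. DNMT1 copies the pattern onto the new strand at replication, brought there by UHRF1, which recognises half-methylated CpGs. TET1, TET2 and TET3 oxidise 5-methylcytosine, and TDG excises the oxidised bases so that base excision repair can restore an unmodified cytosine. The epiblast gains methylation across its genome around implantation, the period that EpiLCs model. Only RNA was measured in these libraries, so neither enzyme amounts nor methylation are described.

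The genes of the DNMT3 family carried the largest falls among the 9 genes from EpiLCs to pEpiLCs, and their starts differ in CpG content. The windows below are printed for this reason, each running from 250 bases before to 50 bases after a RefSeq transcription start, on mouse build GRCm38.p6, 5′ to 3′ on the strand of the gene, with every CpG in capitals. Dnmt3b is shown at chr2:153649199-153649498 (plus strand), Dnmt3a at a start near the 5′ end of the gene, chr12:3806910-3807209 (plus strand), and at an internal start, chr12:3891494-3891793 (plus strand), and Dnmt3l at chr10:78042037-78042336 (plus strand).
Dnmt3b: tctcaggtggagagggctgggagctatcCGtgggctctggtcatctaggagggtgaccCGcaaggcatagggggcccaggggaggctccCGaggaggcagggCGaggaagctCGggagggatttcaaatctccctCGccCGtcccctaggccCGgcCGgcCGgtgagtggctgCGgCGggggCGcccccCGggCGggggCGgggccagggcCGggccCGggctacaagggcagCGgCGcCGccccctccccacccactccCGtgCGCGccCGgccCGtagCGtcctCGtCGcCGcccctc
Dnmt3a, start near the 5′ end: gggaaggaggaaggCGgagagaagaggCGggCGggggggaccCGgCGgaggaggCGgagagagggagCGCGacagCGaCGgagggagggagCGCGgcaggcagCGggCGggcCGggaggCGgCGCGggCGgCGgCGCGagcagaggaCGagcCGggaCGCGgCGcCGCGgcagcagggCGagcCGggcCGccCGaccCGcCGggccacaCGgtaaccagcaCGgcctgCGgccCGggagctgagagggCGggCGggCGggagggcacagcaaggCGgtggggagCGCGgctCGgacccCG
Dnmt3a, internal start: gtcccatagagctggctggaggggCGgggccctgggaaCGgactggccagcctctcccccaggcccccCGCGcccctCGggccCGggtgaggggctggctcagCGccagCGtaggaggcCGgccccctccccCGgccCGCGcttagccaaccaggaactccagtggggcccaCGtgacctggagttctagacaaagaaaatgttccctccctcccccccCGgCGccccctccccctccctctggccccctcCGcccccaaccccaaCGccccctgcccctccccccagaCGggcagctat
Dnmt3l: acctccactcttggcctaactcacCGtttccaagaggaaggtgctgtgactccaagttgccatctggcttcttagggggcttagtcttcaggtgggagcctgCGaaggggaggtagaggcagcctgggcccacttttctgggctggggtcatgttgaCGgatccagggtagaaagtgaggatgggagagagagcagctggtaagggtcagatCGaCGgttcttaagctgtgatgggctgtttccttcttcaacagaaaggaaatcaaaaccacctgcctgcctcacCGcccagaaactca
The Dnmt3b window held 30 CpGs, more than 88.3% of 32851 RefSeq windows of the same kind, whose median was 7. The Dnmt3a window near the 5′ end held 47 CpGs, more than 98.6% of all windows, and the internal one 18. Another RefSeq start of Dnmt3a lies slightly further upstream, and its window (chr12:3806730-3807029), which overlaps the printed one, held 46. A shorter DNMT3A isoform of pluripotent cells is known to start inside the gene, and the gene-level counts do not separate the starts. Dnmt3l stood apart from the other family members with 6 CpGs in the printed window, more than 43.6% of all windows. Further RefSeq starts of Dnmt3l lie inside the gene, and their windows (chr10:78049592-78049891 and chr10:78055085-78055384) held 4 and 3 CpGs. The GC box GGGCGG was searched on both strands with overlapping matches counted. It occurred 4 times in the Dnmt3b window, 7 and 2 times in the 5′ and internal Dnmt3a windows and once in the printed Dnmt3l window. The further Dnmt3l windows held 2 and 0 matches. Of all windows, 35.7% held at least 1 such match. A CpG is part of each GC box, so the 2 features are not independent. Of the Tet genes, Tet2 had the most CpGs in its window, 57, against 22 for Tet3 and 17 for Tet1, whose windows lie 14714 and 11794 bases from the nearest principal start in GENCODE vM21. Tdg had 26.

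Library totals lay between 20560583 and 23417935 expected counts, with a median of 21675315, and 3 counts, taken as the detection limit, corresponded to 0.131 to 0.144 CPM (counts scaled to library size, with TMM normalisation over the 9 libraries). The labels do not say whether replicates came from separate cultures, so p-values measure the spread between these libraries, which may be technical. States carried their markers: primitive streak genes, which include T, Mixl1 and Eomes, summed to 6.94 to 11.4 CPM in EpiLCs and aEpiLCs and to 597 to 2708 CPM in pEpiLCs. Early neural genes summed to 152 to 177 CPM in EpiLCs, 246 to 285 CPM in aEpiLCs and 24.6 to 67.6 CPM in pEpiLCs. The 10 naive markers summed to 408 to 449 CPM in EpiLCs, 73.7 to 86.6 CPM in aEpiLCs and 110 to 115 CPM in pEpiLCs. Most of this sum in EpiLCs was Dppa5a, at 363 to 399 CPM, and Zfp42 had 18.6 to 19.04 CPM there, while Klf4 did not exceed 1.64 CPM in any library and Prdm14 had no more than 3 counts in any EpiLC or aEpiLC library. pEpiLC replicate 1 stood apart from the rest: 324 and 331 genes differed by more than 4-fold between it and replicates 2 and 3, against 57 to 76 in every other pair of replicates. It had the highest sum of primitive streak genes, 2708 CPM against 607 and 597 CPM, and the extraembryonic endoderm list summed to 64.7 CPM against 1.58 and 1.77 CPM. Of the 6 genes of this list in the table, Gata6 had 46.7 CPM, Gata4 12.4 CPM and Sox17 4.69 CPM in pEpiLC replicate 1, while Apoa1 and Sox7 were at 0 there. For the 9 genes, tests with pEpiLCs that passed, or came to pass without that library, are therefore given without it too, while pEpiLC means, ratios and the other pathway genes include it unless stated.

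For each pair of states, a quasi-likelihood test in edgeR was run over all genes, with Benjamini-Hochberg adjustment, and a gene is said to have changed at an adjusted p below 0.05. From EpiLCs to aEpiLCs, 5 of the 9 genes changed: Dnmt3l, Dnmt3a, Tet1 and Uhrf1 fell and Tet3 rose. Of all 15301 genes tested in this comparison, 46.6% changed, 22.6% being lower and 24% higher, so the count alone does not set the 9 genes apart. The fall of Dnmt3l was the only one of at least 2-fold, a size of fall that 5.24% of all genes reached. From EpiLCs to pEpiLCs, 4 genes fell (Dnmt3l, Dnmt3a, Dnmt3b and Tet1), beside 44.2% of 15288 genes that changed and 21.4% that were lower and 22.8% higher. The falls of Dnmt3l, Dnmt3a and Dnmt3b were at least 2-fold, beside 8.13% of all genes that fell by as much. Between aEpiLCs and pEpiLCs, Dnmt3a, Dnmt3b and Tet3 were lower in pEpiLCs, 3 of 9 genes, beside 15.6% of 15198 genes that changed and 9.3% that were lower and 6.28% higher. At least 2-fold lower there was Dnmt3b alone, beside 4.74% of all genes. The libraries of the 2 states did not overlap for 5 of the 9 genes in aEpiLCs against EpiLCs, beside 56.1% of all genes, for 5 in pEpiLCs against EpiLCs, beside 58.6%, and for 4 in pEpiLCs against aEpiLCs, beside 39%. The comparisons with EpiLCs share the EpiLC libraries, so their values are given side by side and are not independent.

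Without pEpiLC replicate 1, the genes that fell from EpiLCs to pEpiLCs numbered 7 of 9, with Uhrf1, Tet3 and Tdg added. Beside them, 52.6% of all genes changed in either direction in that fit. The falls of at least 2-fold were then 2, Dnmt3l and Dnmt3a, beside 15.4% of all genes that changed by as much in either direction. Between aEpiLCs and pEpiLCs, the same 3 genes were lower without that library, each by less than 2-fold, beside 21.6% of all genes that changed in either direction.

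**Figure D1:**
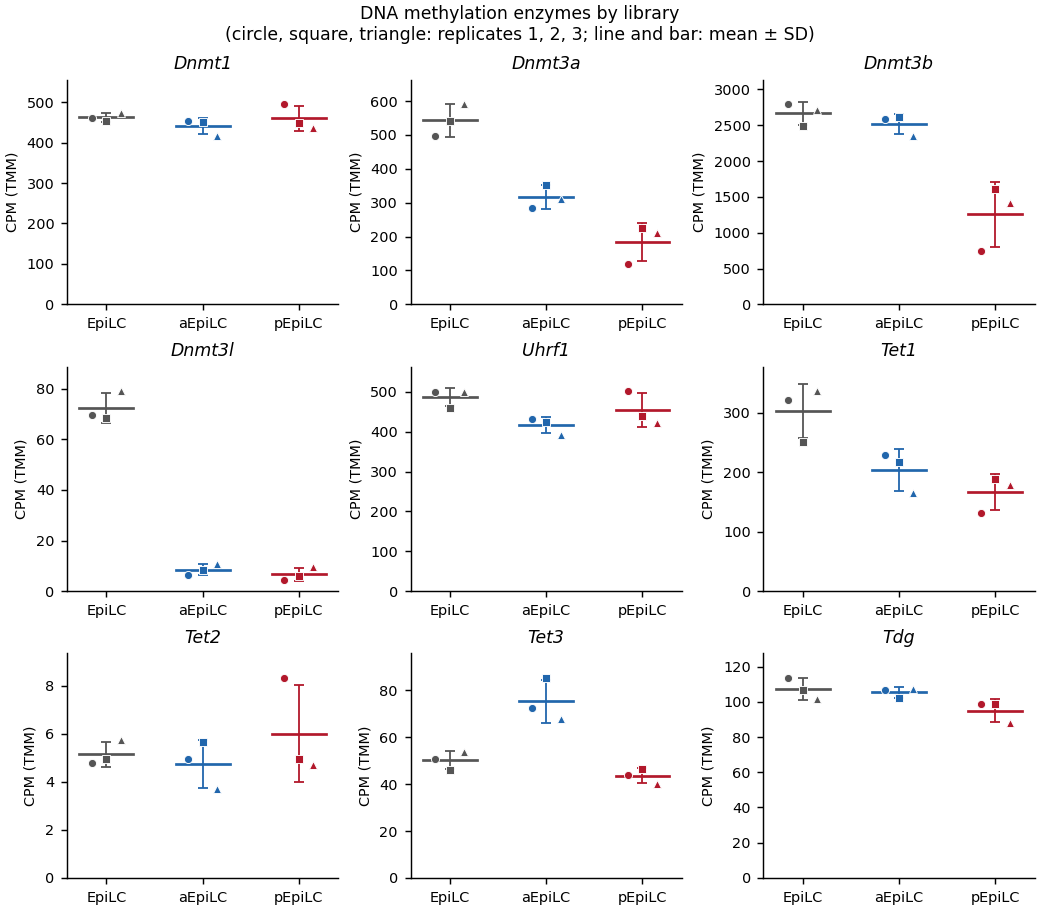
Levels of the 9 genes in every library, in TMM-normalised CPM on linear axes that start at 0, with 1 panel per gene. Circles, squares and triangles are replicates 1, 2 and 3, lines are means and bars are SDs (n = 3). Dnmt3l lies at 68.2 to 79.2 CPM in EpiLCs and at 4.41 to 10.6 CPM in both other states, and the pEpiLC replicates of Dnmt3b are spread from 747 to 1608 CPM.

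Dnmt3l, the cofactor of the de novo enzymes, changed more against EpiLCs than any other of the 9 genes. It is encoded on the plus strand of chromosome 10 (78041947 to 78063622, GRCm38, ENSMUSG00000000730.13). EpiLC replicates 1, 2 and 3 had 69.4, 68.2 and 79.2 CPM, aEpiLC replicates 6.24, 8.37 and 10.6 CPM, and pEpiLC replicates 4.41, 6.13 and 9.45 CPM. Every EpiLC library was far above every library of the other states, while aEpiLCs and pEpiLCs overlapped. Dnmt3l fell to 11.5% of its EpiLC level in aEpiLCs, a log2 fold change of -3.12 (SE 0.137, adjusted p = 3.07e-09), and to 9.20% in pEpiLCs, a log2 fold change of -3.44 (SE 0.242, adjusted p = 0.000115). Between aEpiLCs and pEpiLCs the log2 difference was -0.35 (SE 0.302, adjusted p = 0.484), which does not show that the levels were equal, and it was -0.12 without pEpiLC replicate 1 (adjusted p = 0.762). Without pEpiLC replicate 1, the fall from EpiLCs was -3.22 on the log2 scale (adjusted p = 7.32e-11). Of the naive markers, 4 of 8 tested fell and 1 rose in aEpiLCs, beside 22.6% of all genes lower and 24% higher, and 3 of 9 tested fell in pEpiLCs, beside 21.4% lower. The marker that rose was Klf2, by 1.05 on the log2 scale (adjusted p = 0.00441). Dppa5a, the most abundant of them and named after its values were seen, fell, with log2 fold changes of -3.01 in aEpiLCs (adjusted p = 4.69e-11) and -2.44 in pEpiLCs (adjusted p = 8.83e-05), and the part of remaining naive-marker RNA in the level of Dnmt3l was not tested. In bulk RNA, fewer cells with a transcript and less transcript per cell cannot be told apart, here and for each gene below.

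Exons of Dnmt3l overlap those of Aire, a gene on the opposite strand that encodes a regulator of self-antigen expression in the thymus. Whether the libraries were stranded is not given in the sources used here, so reads of the shared exons cannot be assigned with certainty. Aire had 92, 136 and 193 counts in the EpiLC replicates, 4, 13 and 5 in aEpiLCs and 2, 6 and 4 in pEpiLCs. Dnmt3l had 1466 to 1820 counts in EpiLCs and 92 to 231 in the other libraries. Aire fell together with Dnmt3l, by a log2 fold change of -4.23 in aEpiLCs (SE 0.374, adjusted p = 1.2e-06) and -5.07 in pEpiLCs (SE 0.415, adjusted p = 0.000188), and how far the reads of either gene enter the other's count was not tested.

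Dnmt3a, a de novo methyltransferase, fell in both later states and lay lowest in pEpiLCs. The gene lies on the plus strand of chromosome 12 (3806007 to 3914443, ENSMUSG00000020661.15). Its levels were 497, 541 and 592 CPM in the EpiLC replicates, 283, 354 and 310 CPM in aEpiLCs and 120, 225 and 210 CPM in pEpiLCs. No library of one state overlapped with those of another. Relative to EpiLCs, Dnmt3a was at 57.5% in aEpiLCs (log2 fold change -0.80, SE 0.083, adjusted p = 5.28e-06) and at 33.9% in pEpiLCs (log2 fold change -1.56, SE 0.213, adjusted p = 0.00132). The difference between pEpiLCs and aEpiLCs was -0.78 (SE 0.214, adjusted p = 0.0457). Without pEpiLC replicate 1, Dnmt3a was still lower in pEpiLCs, at -1.33 against EpiLCs (adjusted p = 9.96e-10) and at -0.55 against aEpiLCs (adjusted p = 0.00111). The call against aEpiLCs was lost without aEpiLC replicate 1, 2 or 3 or pEpiLC replicate 3, with log2 fold changes between -0.70 and -0.88 and adjusted p = 0.0984, 0.157, 0.129 and 0.0708. The antisense gene Dnmt3aos, whose exons overlap those of Dnmt3a, had at most 3 counts in any library.

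Dnmt3b, the other de novo methyltransferase, was the most abundant of the 9 genes and fell in pEpiLCs, whereas its change in aEpiLCs did not pass the test. It spans 153649450 to 153687730 on the plus strand of chromosome 2 (ENSMUSG00000027478.15). The EpiLC replicates had 2798, 2492 and 2720 CPM, the aEpiLC replicates 2588, 2613 and 2356 CPM and the pEpiLC replicates 747, 1608 and 1412 CPM. EpiLC and aEpiLC libraries overlapped, and each pEpiLC library lay below all of them. In pEpiLCs Dnmt3b was at 46.8% of its EpiLC level (log2 fold change -1.09, SE 0.243, adjusted p = 0.00932) and at 49.4% of its aEpiLC level (log2 fold change -1.02, SE 0.244, adjusted p = 0.0303). From EpiLCs to aEpiLCs the log2 fold change was -0.10 (SE 0.0627, adjusted p = 0.215). The lowest library was pEpiLC replicate 1, and without it Dnmt3b was at 56.4% of EpiLCs (log2 fold change -0.83, adjusted p = 4.25e-08) and 59.6% of aEpiLCs (log2 fold change -0.75, adjusted p = 5.42e-05). The call against aEpiLCs was lost without aEpiLC replicate 1, 2 or 3 or pEpiLC replicate 3, with log2 fold changes between -0.99 and -1.10 and adjusted p = 0.0991, 0.107, 0.0901 and 0.0579.

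All 3 genes of the DNMT3 family were lower in pEpiLC replicate 1 than in the other pEpiLC libraries. Its Dnmt3b was at 49.5%, its Dnmt3a at 55.2% and its Dnmt3l at 56.5% of the mean of replicates 2 and 3. Tet1 was at 71.9% and Tet2 at 173%, while Dnmt1, Uhrf1, Tet3 and Tdg were at 101% to 117%. The same library had the highest sums of primitive streak and extraembryonic endoderm genes and the lowest of early neural genes, 24.6 CPM against 67.6 and 57.4 CPM. Whether these differences bear on its methyltransferase levels was not tested.

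**Figure D2:**
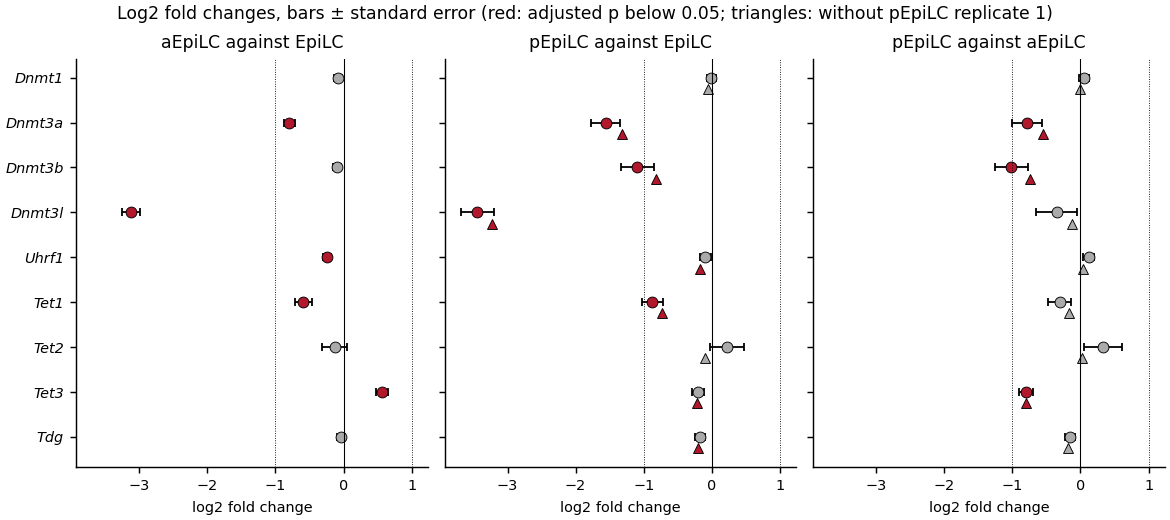
Log2 fold changes of the 9 genes in the 3 comparisons, on one horizontal scale. Circles are fits to all 6 libraries with bars of ± 1 standard error, triangles are fits without pEpiLC replicate 1, red marks an adjusted p below 0.05 and dotted lines mark 2-fold. Dnmt3l lies at -3.12 and -3.44 against EpiLCs, Dnmt3b is red only in the comparisons with pEpiLCs, and Tet3 lies at 0.57 in aEpiLCs and at -0.80 between pEpiLCs and aEpiLCs.

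Maintenance methylation depends on Dnmt1 and Uhrf1, and these genes varied less between states. Dnmt1 (chromosome 9, 20907209 to 20959888, minus strand, ENSMUSG00000004099.16) had 460, 452 and 474 CPM in EpiLCs, 454, 451 and 417 CPM in aEpiLCs and 496, 449 and 437 CPM in pEpiLCs. The 3 states overlapped. No comparison of Dnmt1 passed the test: its log2 fold change was -0.08 in aEpiLCs (SE 0.0565, adjusted p = 0.244), -0.01 in pEpiLCs (SE 0.0637, adjusted p = 0.918) and 0.05 between pEpiLCs and aEpiLCs (SE 0.0748, adjusted p = 0.674). Uhrf1 (chromosome 17, 56303321 to 56323486, plus strand, ENSMUSG00000001228.14) had 499, 461 and 500 CPM in EpiLCs, 431, 425 and 393 CPM in aEpiLCs and 503, 440 and 423 CPM in pEpiLCs. Every aEpiLC library was below every EpiLC library, and the pEpiLC libraries overlapped with both. Uhrf1 fell to 84.7% in aEpiLCs (log2 fold change -0.24, SE 0.0596, adjusted p = 0.005), whereas its log2 fold change was -0.10 in pEpiLCs (SE 0.0782, adjusted p = 0.333) and 0.12 between pEpiLCs and aEpiLCs (SE 0.0851, adjusted p = 0.386). Without pEpiLC replicate 1, which had the highest pEpiLC level, the fall from EpiLCs was -0.18 (adjusted p = 0.00902).

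Both maintenance genes are known to be expressed with S phase. Of a list of 18 S phase and replication genes, 10 fell in aEpiLCs, beside 22.6% of all genes, where Uhrf1 fell and Dnmt1 did not pass the test. In pEpiLCs, where neither gene passed with all libraries, 8 fell and 2 rose, beside 21.4% and 22.8% of all genes. The 8 became 4 without EpiLC replicate 1, 2 or 3, where 31.8%, 29.5% and 28.9% of all genes changed. They became 5 without pEpiLC replicate 2 or 3, where 38.2% and 37.4% did, against 44.2% with all libraries. The 18 genes summed to 4367 to 4479 CPM in EpiLCs, 3907 to 4036 CPM in aEpiLCs and 4114 to 4266 CPM in pEpiLCs. The part of S phase in the level of Uhrf1 was not tested.

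Tet1 is the main Tet gene of pluripotent cells and fell in both later states. It is encoded on the minus strand of chromosome 10 (62804570 to 62908996, ENSMUSG00000047146.17). Its EpiLC replicates had 322, 252 and 337 CPM, its aEpiLC replicates 230, 218 and 164 CPM and its pEpiLC replicates 132, 188 and 178 CPM. All EpiLC libraries were above those of the other states, which overlapped with each other. In aEpiLCs Tet1 was at 66.5% of its EpiLC level (log2 fold change -0.59, SE 0.119, adjusted p = 0.00121) and in pEpiLCs at 54.5% (log2 fold change -0.87, SE 0.152, adjusted p = 0.00344). The difference between pEpiLCs and aEpiLCs, -0.31, did not pass (SE 0.162, adjusted p = 0.243), nor did its value of -0.16 without pEpiLC replicate 1 (adjusted p = 0.371). Without pEpiLC replicate 1 the fall from EpiLCs to pEpiLCs was -0.73 (adjusted p = 1.27e-05).

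Tet3, the dioxygenase best known from the oocyte and from neural cells, was the only one of the 9 genes to rise. The gene lies on the minus strand of chromosome 6 (83362373 to 83459084, ENSMUSG00000034832.15). It had 50.9, 46.1 and 53.9 CPM in the EpiLC replicates, 72.5, 85.5 and 67.7 CPM in aEpiLCs and 43.9, 46.5 and 40.2 CPM in pEpiLCs. The aEpiLC libraries were above all others, and the EpiLC and pEpiLC libraries overlapped. From EpiLCs to aEpiLCs Tet3 rose 1.48-fold (log2 fold change 0.57, SE 0.0878, adjusted p = 0.000162). In pEpiLCs it was at 57.5% of its aEpiLC level (log2 fold change -0.80, SE 0.106, adjusted p = 0.00326), and at 57.4% without pEpiLC replicate 1 (adjusted p = 0.000233). Against EpiLCs, the pEpiLC value of -0.21 did not pass with all libraries (SE 0.0889, adjusted p = 0.0883) and passed without pEpiLC replicate 1, at -0.22 (adjusted p = 0.0401). The summed level of the early neural genes was also highest in aEpiLCs, with 3 of 5 tested genes higher in aEpiLCs than in EpiLCs, beside 24% of all genes, and 4 of 5 lower in pEpiLCs than in aEpiLCs, beside 9.3%. Sox1, at -0.32 (adjusted p = 0.503), and Sox3, at 0.13 (adjusted p = 0.414), did not pass in aEpiLCs. Their part in the level of Tet3 was not tested.

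Tet2, a dioxygenase studied mostly in blood cells, was the least abundant of the 9 genes. It is a minus-strand gene of chromosome 3 (133463679 to 133545139, ENSMUSG00000040943.12), with 80 to 174 counts per library. The EpiLC replicates had 4.76, 4.93 and 5.74 CPM, the aEpiLC replicates 4.92, 5.65 and 3.68 CPM and the pEpiLC replicates 8.33, 4.95 and 4.70 CPM. All 3 states overlapped, and the highest value was that of pEpiLC replicate 1. The log2 fold changes of -0.13 in aEpiLCs (SE 0.183, adjusted p = 0.587) and 0.22 in pEpiLCs (SE 0.249, adjusted p = 0.512) and the log2 difference of 0.33 between pEpiLCs and aEpiLCs (SE 0.277, adjusted p = 0.472) did not pass. Against EpiLCs the pEpiLC value was -0.10 without replicate 1 (adjusted p = 0.659). An antisense gene, Gm42567, overlaps exons of Tet2 and has no row in the table used here.

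Tdg encodes the glycosylase that removes oxidised methylcytosine. It spans 82629828 to 82650799 on the plus strand of chromosome 10 (ENSMUSG00000034674.18). EpiLC replicates had 114, 106 and 102 CPM, aEpiLC replicates 107, 102 and 107 CPM and pEpiLC replicates 98.5, 99.0 and 87.7 CPM. Each pEpiLC library was below every library of the other states, but with all libraries no comparison passed the test. The log2 fold change of Tdg was -0.04 in aEpiLCs (SE 0.0626, adjusted p = 0.623), -0.18 in pEpiLCs (SE 0.0725, adjusted p = 0.0800) and -0.16 between pEpiLCs and aEpiLCs (SE 0.0719, adjusted p = 0.182). Without pEpiLC replicate 1, it was -0.20 against EpiLCs (adjusted p = 0.0244). Counts of Tdg are uncertain, since genes named as its copies may take its reads. Tdg-ps2 had 1211 to 1723 counts per library and Tdg-ps 127 to 174, beside 1883 to 2460 for Tdg. Tdg-ps is a processed pseudogene in GENCODE vM21, which has no gene named Tdg-ps2. How alike the sequences are, and how far reads are shared among them, was not tested. Tdg-ps2 was lower in pEpiLCs too, by a log2 fold change of -0.25 against EpiLCs (SE 0.078, adjusted p = 0.0363) and -0.28 against aEpiLCs (SE 0.0709, adjusted p = 0.0375).

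Levels of different genes were compared per length, as CPM per kb of the union of a gene's exons in GENCODE vM21. This union exceeds the longest transcript unevenly, with 5374 against 3502 bases for Tdg, 16642 against 9685 for Dnmt3a and 15457 against 14369 for Tet1. The order of genes close in level, and pairs said not to differ, therefore hold for this length only. In EpiLCs the order was Dnmt3b at 523 ± 31.2 CPM per kb (SD, n = 3, as for all values here), Uhrf1 at 114 ± 5.27, Dnmt1 at 62.6 ± 1.47, Dnmt3a at 32.6 ± 2.86 and Dnmt3l at 24.2 ± 2.01 CPM per kb. Tdg followed at 19.96 ± 1.14 and Tet1 at 19.7 ± 2.95 CPM per kb, a pair that did not differ beyond its spread, then Tet3 at 3.01 ± 0.235 and Tet2 at 0.305 ± 0.0311 CPM per kb. Dnmt3b thus led the order, and it did so in every state. In aEpiLCs Dnmt3b had 493 ± 27.8, Uhrf1 97.8 ± 4.78 and Dnmt1 59.7 ± 2.77 CPM per kb. Tdg at 19.6 ± 0.566 and Dnmt3a at 19.0 ± 2.13 CPM per kb did not differ beyond their spread, and Tet1 had 13.2 ± 2.25, Tet3 4.51 ± 0.550, Dnmt3l 2.81 ± 0.734 and Tet2 0.282 ± 0.0591 CPM per kb. Dnmt3l had moved from above Tet1 in EpiLCs to below Tet3 in aEpiLCs. In pEpiLCs Dnmt3b had 246 ± 88.4, Uhrf1 107 ± 9.96, Dnmt1 62.4 ± 4.22 and Tdg 17.7 ± 1.19 CPM per kb. Dnmt3a at 11.1 ± 3.41 and Tet1 at 10.8 ± 1.95 CPM per kb overlapped, as did Tet3 at 2.61 ± 0.188 and Dnmt3l at 2.23 ± 0.859 CPM per kb, and Tet2 was last at 0.355 ± 0.120 CPM per kb.

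The balance within each library was also compared per length, with 3 libraries against 3, where a two-sided exact permutation test cannot give a p below 0.1. Dnmt3b was 16.1 ± 1.94 times Dnmt3a in EpiLCs, 26.2 ± 3.11 times in aEpiLCs and 21.9 ± 1.51 times in pEpiLCs (SD, n = 3), and no libraries of different states overlapped. The ratio of Dnmt3l to the sum of Dnmt3a and Dnmt3b was 0.0436 ± 0.00323 in EpiLCs, 0.00555 ± 0.00173 in aEpiLCs and 0.00893 ± 0.00242 in pEpiLCs. EpiLC libraries stood above all others in this ratio, so Dnmt3l fell by more than the enzymes it stimulates. Dnmt1 was 0.113 ± 0.00499 of the summed de novo enzymes in EpiLCs, 0.117 ± 0.00165 in aEpiLCs and 0.276 ± 0.140 in pEpiLCs, where the replicates had 0.438, 0.185 and 0.205. All pEpiLC libraries were higher, and replicate 1 set most of the spread. As a share of the summed Dnmt1, Dnmt3a, Dnmt3b and Dnmt3l, Dnmt3b took 81.4% ± 1.06 in EpiLCs, 85.8% ± 0.433 in aEpiLCs and 75.0% ± 7.97 in pEpiLCs. The pEpiLC replicates had 65.9%, 80.5% and 78.7%, so that replicate 1 set most of the distance from the EpiLC range of 80.7% to 82.6%.

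Among the Tet genes, Tet1 took 85.5% ± 1.08 of the summed level per length in EpiLCs, 73.2% ± 2.63 in aEpiLCs and 78.1% ± 4.24 in pEpiLCs (SD, n = 3). Tet3 took 13.2% ± 0.929, 25.2% ± 2.59 and 19.2% ± 2.94 in the same order, and Tet2 between 1.17% and 4.24% in any library. Tet1 was 6.50 ± 0.519 times Tet3 in EpiLCs, 2.93 ± 0.428 times in aEpiLCs and 4.14 ± 0.799 times in pEpiLCs. EpiLCs lay above both other states in this ratio. aEpiLCs, at 2.62 to 3.42, overlapped only with pEpiLC replicate 1, at 3.25, while pEpiLC replicates 2 and 3 were above them at 4.38 and 4.79. Summed Dnmt3a and Dnmt3b were 24.4 ± 2.30, 28.8 ± 2.97 and 18.3 ± 4.51 times the summed Tet genes in EpiLCs, aEpiLCs and pEpiLCs. Each pEpiLC library was below every other library in that ratio, and the EpiLC and aEpiLC libraries overlapped.

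**Figure D3:**
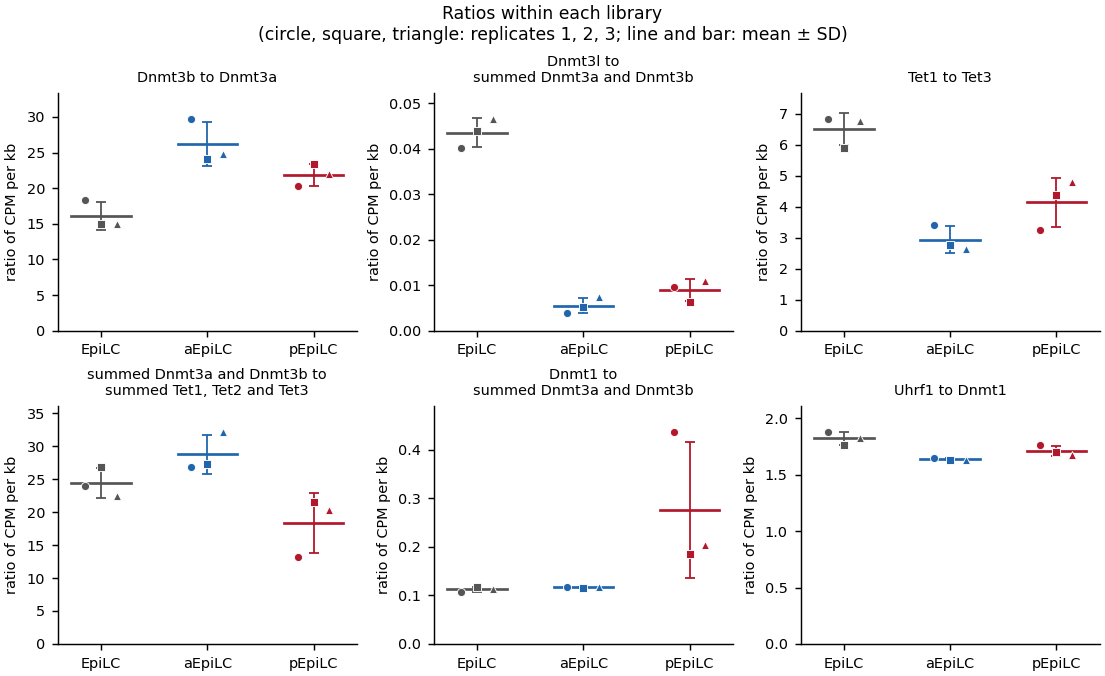
Ratios of levels per length (CPM per kb of exon) within each library, on linear axes that start at 0. Circles, squares and triangles are replicates 1, 2 and 3, lines are means and bars are SDs (n = 3). The ratio of Dnmt3l to the de novo enzymes is 0.0402 to 0.0467 in EpiLCs and at most 0.0109 in the other states, and Dnmt1 reaches 0.438 of the de novo enzymes in pEpiLC replicate 1.

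Genes with the most similar profiles were sought by Pearson's r of log2(CPM + 1) over the 9 libraries, among 10723 genes with a mean of at least 5 CPM. The 9 points are 3 states, so r mostly reflects differences between states and is a description. Closest to Dnmt3a were Kdm4a (r = 0.995) and Trim24 (r = 0.991), closest to Dnmt3b were Csrnp1 (r = 0.995) and Rtkn2 (r = 0.993), and closest to Dnmt3l were Rpl39l (r = 0.996) and Gab1 (r = 0.996). Rpl39l, for example, had a mean of 14.3 CPM in EpiLCs, 1.15 CPM in aEpiLCs and 0.643 CPM in pEpiLCs. Tet1 was closest to Bptf (r = 0.979) and Ttf2 (r = 0.975), and Tet3 to Spire1 (r = 0.978) and Minar1 (r = 0.976). For the genes that varied little, the closest were Nf2 and Smg6 (r = 0.956 and 0.955) for Dnmt1, Nup214 and Evi5 (r = 0.971 and 0.968) for Uhrf1, Kif24 and Cttn (r = 0.970 and 0.958) for Tet2 and Wdr70 and Kdm1a (r = 0.942 and 0.922) for Tdg.

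Other genes of the pathway were described from 5 lists, beside the shares of all genes given above. The shares of all genes that changed also moved when single libraries were left out. They were 37.6% to 45% in aEpiLCs against EpiLCs and 28.9% to 52.6% in pEpiLCs against EpiLCs. Between pEpiLCs and aEpiLCs they were 4.99% to 21.6%, so a list count that moves with a library is not particular to the list. Of 16 genes that help maintain or target methylation, 15 were tested against EpiLCs, and 1 rose and 7 fell in aEpiLCs (median log2 fold change of the list -0.09, of all genes 0.0023). In pEpiLCs 4 rose and 5 fell (median -0.12, of all genes 0.017). Zfp57, a zinc finger protein that protects imprints, had 55.7, 50.2 and 55.2 CPM in EpiLCs, 31.2, 29.5 and 31.7 CPM in aEpiLCs and 43.7, 21.8 and 26.2 CPM in pEpiLCs. It was below EpiLCs in every later library, with a log2 fold change of -0.82 in both states (adjusted p = 1.24e-06 in aEpiLCs and 0.025 in pEpiLCs). In pEpiLCs this call was lost without any 1 of the EpiLC replicates or without pEpiLC replicate 2 or 3, with adjusted p between 0.051 and 0.0779. Uhrf2, the paralogue of Uhrf1, rose from 49.8 ± 1.15 to 63.2 ± 1.18 CPM in aEpiLCs (SD, n = 3, log2 fold change 0.33, adjusted p = 0.000737) and to 83.5 ± 23.04 CPM in pEpiLCs (SD, n = 3, log2 fold change 0.74, adjusted p = 0.0121). Smchd1, a chromatin protein of the inactive X chromosome, rose in pEpiLCs, to 302 ± 37.8 CPM from 175 ± 8.32 CPM in EpiLCs (SD, n = 3, log2 fold change 0.79, adjusted p = 0.000817) and 193 ± 12.1 CPM in aEpiLCs (SD, n = 3, log2 fold change 0.63, adjusted p = 0.00765). It was the only gene of the 14 tested in this list that changed between pEpiLCs and aEpiLCs, while Zfp57 was lower there without pEpiLC replicate 1 (log2 fold change -0.37, adjusted p = 0.025). The single rise in aEpiLCs became 2 without EpiLC replicate 1 and 4 without aEpiLC replicate 3.

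Supply of the methyl donor S-adenosylmethionine was represented by 8 genes, of which 1 rose and 5 fell in aEpiLCs (median -0.30) and 2 rose and 2 fell in pEpiLCs (median -0.01). Shmt2, the mitochondrial enzyme that feeds serine carbon into the folate cycle, had 320, 361 and 341 CPM in EpiLCs, 120, 164 and 155 CPM in aEpiLCs and 191, 181 and 168 CPM in pEpiLCs. It was lower in every later library, with log2 fold changes of -1.24 in aEpiLCs (SE 0.0958, adjusted p = 3.58e-07) and -0.92 in pEpiLCs (SE 0.0726, adjusted p = 0.00016). Ahcy, which clears the by-product of methylation, had 428, 448 and 467 CPM in EpiLCs, 337, 362 and 358 CPM in aEpiLCs and 555, 545 and 516 CPM in pEpiLCs. The states did not overlap: Ahcy fell in aEpiLCs (log2 fold change -0.36, SE 0.0583, adjusted p = 0.000222), rose in pEpiLCs (0.26, SE 0.058, adjusted p = 0.00918) and was higher in pEpiLCs than in aEpiLCs (0.60, SE 0.0627, adjusted p = 0.00116). Shmt1, the cytosolic enzyme, fell in aEpiLCs from 143 ± 5.89 to 107 ± 7.38 CPM (SD, n = 3, log2 fold change -0.44, adjusted p = 0.000131) and had 131 ± 0.603 CPM in pEpiLCs (SD, n = 3). Ahcy and Shmt1 were the 2 genes of the list that were higher in pEpiLCs than in aEpiLCs. The call of Shmt1 there (log2 fold change 0.29, adjusted p = 0.032) was lost without aEpiLC replicate 1, 2 or 3 or pEpiLC replicate 2 or 3, with adjusted p between 0.0577 and 0.096. Of the 2 genes that fell in pEpiLCs, 1 remained called without EpiLC replicate 1, 2 or 3 or pEpiLC replicate 2 or 3, and of the 2 that rose, 1 without EpiLC replicate 2 or 3.

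Of 8 genes for readers of methylated CpGs, 5 rose and 2 fell in aEpiLCs (median 0.29), and 4 rose and 1 fell in pEpiLCs (median 0.40). Zbtb33, which encodes the reader Kaiso, rose from 33.6 ± 2.14 CPM to 51.7 ± 0.723 CPM in aEpiLCs (SD, n = 3, log2 fold change 0.61, adjusted p = 1.36e-05) and 47.0 ± 1.74 CPM in pEpiLCs (SD, n = 3, log2 fold change 0.48, adjusted p = 0.00279). Mbd2 rose from 6.84 ± 0.280 to 10.1 ± 1.09 CPM in aEpiLCs (SD, n = 3, log2 fold change 0.54, adjusted p = 0.00415). Its rise to 10.7 ± 2.34 CPM in pEpiLCs (SD, n = 3, log2 fold change 0.64, adjusted p = 0.0225) was not called without EpiLC replicate 1, 2 or 3 (adjusted p = 0.0605, 0.0793 and 0.073). The 5 rises in aEpiLCs became 2 without EpiLC replicate 2 or aEpiLC replicate 2 and 3 without EpiLC replicate 3, and the single fall in pEpiLCs became 2 without pEpiLC replicate 1.

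Partners of the Tet enzymes and genes of base excision repair formed a list of 17, of which 5 rose and 4 fell in aEpiLCs (median 0.02) and 3 rose and 6 fell in pEpiLCs (median -0.05). Gadd45g, a stress-response gene linked to active demethylation, had 21.0, 16.2 and 22.5 CPM in EpiLCs, 29.4, 25.1 and 27.0 CPM in aEpiLCs and 0.910, 1.14 and 1.21 CPM in pEpiLCs. The states did not overlap, and the pEpiLC libraries were far below the rest. It fell by a log2 fold change of -4.19 from EpiLCs (SE 0.196, adjusted p = 2.3e-05) and was lower than in aEpiLCs by -4.64 (SE 0.157, adjusted p = 1.22e-05), while it rose in aEpiLCs by 0.43 (SE 0.116, adjusted p = 0.00821). Gadd45a fell in pEpiLCs from 25.1 ± 3.91 to 13.7 ± 3.43 CPM (SD, n = 3, log2 fold change -0.88, adjusted p = 0.00985) and had 22.2 ± 2.00 CPM in aEpiLCs (SD, n = 3). Cxxc4, a CXXC protein that binds TET2, rose from 2.49 ± 0.278 CPM to 5.72 ± 2.25 CPM in aEpiLCs (SD, n = 3, log2 fold change 1.18, adjusted p = 0.00201) and 6.84 ± 1.63 CPM in pEpiLCs (SD, n = 3, log2 fold change 1.45, adjusted p = 0.00222). Between pEpiLCs and aEpiLCs, 2 genes were higher and 5 lower, a count of lower genes that became 3 without aEpiLC replicate 1 or pEpiLC replicate 3 and 2 without aEpiLC replicate 2 or 3 or pEpiLC replicate 2. The 2 higher genes became 1 without aEpiLC replicate 1, 2 or 3 or pEpiLC replicate 2. Gadd45a (log2 fold change -0.70, adjusted p = 0.0403) was among the lower genes lost in all of these, with adjusted p between 0.0901 and 0.148.

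Of the 18 S phase and replication genes, 10 fell in aEpiLCs (median -0.25), 2 rose and 8 fell in pEpiLCs (median -0.18), and 1 was higher in pEpiLCs than in aEpiLCs (median 0.06, of all genes 0.012). Cdt1, a licensing factor of replication origins, fell from 155 ± 7.53 CPM to 103 ± 8.27 CPM in aEpiLCs (SD, n = 3, log2 fold change -0.61, adjusted p = 1.16e-05) and 103 ± 10.03 CPM in pEpiLCs (SD, n = 3, log2 fold change -0.60, adjusted p = 0.00141). Ccne1, a cyclin of the entry into S phase, fell from 197 ± 4.09 CPM to 140 ± 13.3 CPM in aEpiLCs (SD, n = 3, log2 fold change -0.50, adjusted p = 6.99e-05) and 125 ± 4.96 CPM in pEpiLCs (SD, n = 3, log2 fold change -0.66, adjusted p = 0.000198). Its paralogue Ccne2 went the other way in pEpiLCs, with 36.0 ± 2.37 CPM against 20.04 ± 1.17 CPM in EpiLCs (SD, n = 3, log2 fold change 0.84, adjusted p = 0.000519) and 22.2 ± 1.23 CPM in aEpiLCs (SD, n = 3, log2 fold change 0.69, adjusted p = 0.00363). In aEpiLCs, 1 gene rose without aEpiLC replicate 3.

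**Figure D4:**
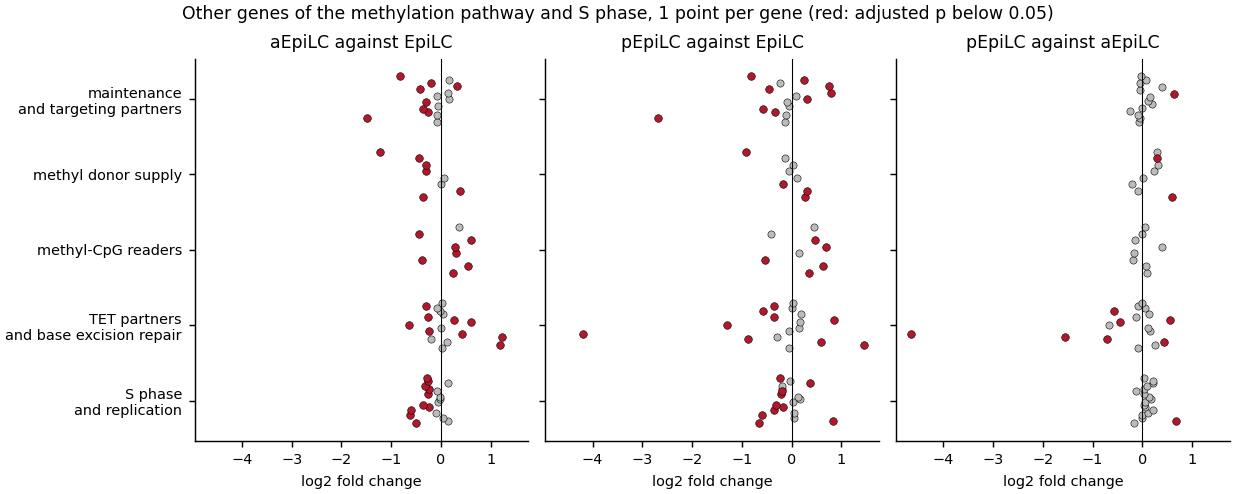
Log2 fold changes of the genes in the 5 pathway lists, 1 point per gene tested, in the 3 comparisons on one horizontal scale. Red points have an adjusted p below 0.05 and grey points do not. Gadd45g is the point at -4.19 and -4.64 in the comparisons with pEpiLCs, and the red S phase points in aEpiLCs all lie below 0.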

How the data were processed

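Bulk RNA-seq libraries of EpiLCs, aEpiLCs and pEpiLCs (3 each) were used, with groups and replicate numbers taken from the sample titles. The values deposited by the authors are RSEM expected counts per gene symbol, without normalisation, and per the labels' processing notes STAR 2.7.9a and RSEM 1.3.1 were used with GRCm38. The annotation, read cleaning and strandedness are not given in the sources used here. Of all values, 20.2% were not whole, and all were rounded for the tests. RSEM shares ambiguous reads among genes, which affects genes with near-identical copies.

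The 6 libraries of a pair of states were fitted together in R 4.3.3 with edgeR 4.0.16 (TMM, filterByExpr, glmQLFit and glmQLFTest) and adjusted by Benjamini-Hochberg over all genes tested. A standard error is the fold change over the square root of its F. Per-length levels used exon lengths from GENCODE vM21, to which 22803 of 23453 symbols (97.2%) matched, and promoter windows came from RefSeq. From each pathway list, up to 3 genes were named by the largest absolute log2 fold change in any comparison, among those with an adjusted p below 0.05 there and a mean of at least 5 CPM; 1 gene that this rule names is not reported here. Other genes named are markers, near neighbours or copies in the genome, and the 2 genes most alike to each member. The members and lists were chosen with earlier results of these data known. Alternatives were RLE size factors, DESeq2 1.42.0, edgeR's likelihood ratio test, voom with quality weights in limma 3.58.1, no filter, at least 10 counts in every library, all 9 libraries in one fit, the replicate number as a block, each library left out in turn and, for ratios, the longest transcript as length. The procedure was tested on simulated data.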

Additional observations from a re-analysis of the deposited data

Results flagged for a closer look

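Effects of the same kind, each a later state against EpiLCs, were set side by side for the genes named. For 9 of them the signs were opposite and the direct test between pEpiLCs and aEpiLCs passed. Of these, 1 was among the 9 DNA methylation genes and 2 in the pathway lists. Of all 15198 genes, 15.6% passed the direct test, and the share that also had opposite signs was not counted. Some of the genes named were chosen for their changes or likeness, so the count does not set them apart. Tet3 was 0.57 on the log2 scale in aEpiLCs and -0.21 in pEpiLCs, the latter not past the threshold, and the difference was -0.80 (SE 0.106, adjusted p = 0.00326). Ahcy was -0.36 in aEpiLCs and 0.26 in pEpiLCs, a difference of 0.60 (SE 0.0627, adjusted p = 0.00116). Gadd45g was 0.43 in aEpiLCs and -4.19 in pEpiLCs, a difference of -4.64 (SE 0.157, adjusted p = 1.22e-05). Of the marker genes, the difference was -1.83 for Klf2 (adjusted p = 0.0107), 8.63 for Mixl1 (adjusted p = 0.0132) and -1.93 for Sox3 (adjusted p = 0.0108). It was -0.28 for Tdg-ps2 (adjusted p = 0.0375), and for the genes similar in profile to Tet3 it was -1.58 for Minar1 (adjusted p = 0.00222) and -0.27 for Spire1 (adjusted p = 0.0348). Minar1 and Spire1 were chosen for their likeness to Tet3 over these same libraries, so their differences repeat that choice and are no separate support. For Klf2, Minar1 and Spire1 the effect in pEpiLCs was not past the threshold, and for Sox3 and Tdg-ps2 that in aEpiLCs was not. The 2 effects share the EpiLC libraries, whereas the direct test does not use them. With 3 libraries per state, single libraries were not tested for lying apart.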

How the results depend on the processing

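Of 378 alternative values of single members, 354 kept their direction and their side of the threshold, 8 were no longer past it, 7 came to pass it and 9 changed sign. The count of members changed from EpiLCs to pEpiLCs was 7 with voom and quality weights, where 53.4% of all genes changed, and also without pEpiLC replicate 1, where 52.6% did, against 44.2% in the reported fit, and it ranged from 4 to 7 when single libraries were left out. At 2-fold it ranged from 2 to 3. From EpiLCs to aEpiLCs the leave-one-out counts were 5 throughout, and 1 at 2-fold. Between pEpiLCs and aEpiLCs they ranged from 1 to 3, and from 0 to 1 at 2-fold, and voom left 0 at 2-fold. The changes of sign concerned values that passed no test in the reported fit. With single libraries left out, Tdg ranged from -0.081 to 0.00024 and Tet2 from -0.27 to 0.025 in aEpiLCs against EpiLCs. In pEpiLCs against EpiLCs, Dnmt1 ranged from -0.066 to 0.034 and Tet2 from -0.097 to 0.37. Between pEpiLCs and aEpiLCs, the ranges were -0.00062 to 0.091 for Dnmt1, -0.11 to 0.18 for Mbd2, -0.087 to 0.062 for Cdt1 and -0.37 to 0.18 for Zfp57. Voom gave -0.050 for Tet2 in pEpiLCs against EpiLCs, and -0.00072 for Dnmt1 and -0.065 for Mbd2 between pEpiLCs and aEpiLCs. Over all genes, the count changed between pEpiLCs and aEpiLCs was 2369, against 3611 with voom and 774 to 3340 with single libraries left out, and that at 2-fold 1108, against 514 to 1148. From EpiLCs to aEpiLCs, 1911 genes changed at least 2-fold, against 1259 with at least 10 counts in every library. The cause of these changes was not tested. Taking the longest transcript as length, the ratio of Dnmt3b to Dnmt3a was 11.1, 18.02 and 15.04 in EpiLCs, aEpiLCs and pEpiLCs. In the same order, Tet1 to Tet3 was 4.57, 2.06 and 2.91, and Dnmt3l to summed Dnmt3a and Dnmt3b 0.0589, 0.00757 and 0.01215. The order of the states was kept in each of these ratios. Shares within the Dnmt and Tet families were taken with exon unions only. At these depths Tet2 and, outside EpiLCs, Dnmt3l rest on the fewest counts.

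Replicate numbers are shared by the states, but same-numbered libraries did not deviate together throughout: their correlations were 0.0209, -0.0571 and -0.0601 for aEpiLCs and EpiLCs, 0.0256, 0.0336 and 0.0153 for pEpiLCs and EpiLCs, and 0.172, 0.117 and 0.0621 for pEpiLCs and aEpiLCs, where every library correlated best with its own number. With the replicate block, the members changed were 5, 4 and 3, as without it, and the genes changed 6814, 5903 and 2464 of those tested, against 7130, 6759 and 2369 without it, for aEpiLCs and pEpiLCs against EpiLCs and pEpiLCs against aEpiLCs.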
